A study of Bos taurus with 12 samples.

Results

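The microRNAs (miRNAs) miR-375, miR-6715 and miR-6516 (bta-miR-375, bta-miR-6715 and bta-miR-6516 in the table) were described in small RNA libraries of mammary gland biopsies from 12 Chinese Holstein cows. The 3 miRNAs were chosen by name from the 388 mature miRNAs of the deposited table, and each is listed with 1 precursor. They were chosen with the values of these libraries known. They hold the 3 smallest p-values of the difference between lactation and the non-lactating period, so their stage difference is given below as a description, with no test. miR-148a came next in that order.

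The study compared cows of high and low milk protein percentage. The groups are HP (high, in lactation), LP (low, in lactation), HD (high, non-lactating) and LD (low, non-lactating), with 3 libraries each. All cows were healthy and had calved more than once. The lactating cows were biopsied near the peak of lactation and the non-lactating cows in the weeks before the expected calving, and each library is from a different cow, so a stage difference is a difference between cows. The unit is TPM, which here means the reads of a miRNA as a share of those counted over the miRNA entries of the library, scaled to a common total, with no correction for length. Reads over the entries of a library are not given in the table and were inferred from the steps in which its values rise. These estimates ranged from 6026620 to 13373813 in lactation and from 11047233 to 23577192 in the non-lactating period. Most non-lactating libraries thus had more reads over the entries. In the paper, reads left after trimming varied little between libraries, so the estimates do not measure sequencing depth. The highest estimate lies within the range of those trimmed reads, though the paper counts part of them as unmapped or as other RNAs. A floor of 3 reads corresponded to 0.127 TPM in the library with the highest estimate and 0.498 TPM in that with the lowest. This limit covers counting error only. A biopsy holds several cell types, and fewer cells of a type cannot be told apart from less RNA per cell in bulk tissue.

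MiRNAs are short RNAs that guide Argonaute proteins to messenger RNAs, mostly by pairing of the seed near the 5′ end of the miRNA, and lower the output of those messengers. miR-375 is best known from the insulin-secreting cells of the pancreas, where it limits insulin release, and it is also a miRNA of secretory and glandular epithelia, the luminal cells of the breast included. No role is stated here for miR-6715 and miR-6516. In the RefSeq gene table of assembly ARS-UCD2.0, all 3 miRNA genes were matched by name. The gene of miR-375 lies between genes and has as neighbours CRYBA2, which encodes a crystallin of the lens, and CFAP65, which encodes a protein of cilia and flagella. That of miR-6715 lies within the limits of TECTB, which encodes a protein of the tectorial membrane of the inner ear, and the next gene on one side is GPAM, which encodes an acyltransferase at the start of triglyceride synthesis. That of miR-6516 lies within LOC100196898, a long noncoding RNA gene. None of the 3 has another miRNA gene within 10 kb in that table.

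miR-375 was the abundant member. In lactation it had 2681, 5743 and 4844 TPM in HP replicates 1 to 3 and 3921, 2477 and 3702 TPM in LP replicates 1 to 3. After dry-off it had 371, 565 and 336 TPM in HD and 727, 333 and 577 TPM in LD. Even the lowest lactation library, LP replicate 2, stood 3.41 times above the highest non-lactating library, LD replicate 1. The mean was 3895 ± 1252 TPM in lactation and 485 ± 162 TPM in the non-lactating period (SD, n = 6), a ratio of 8.03. By mean TPM, miR-375 ranked 29 of the 388 in lactation but 83 after dry-off.

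miR-6715 was a low-level miRNA that was nearly lost from the non-lactating libraries. Its values were 7.80, 5.95 and 10.06 TPM in HP and 9.87, 7.66 and 5.80 TPM in LP. In the non-lactating period it had 0, 0.14 and 0.08 TPM in HD and 0, 0 and 0.19 TPM in LD. Every lactation library was thus at 5.80 TPM or more, and no non-lactating library was above 0.19 TPM. In reads inferred from the steps, the lactation libraries held 46 to 132 each. The non-lactating libraries held 0, 3 and 2 in HD and 0, 0 and 4 in LD, so 3 of the 6 are listed at 0, which there allows up to 0.272 TPM in HD replicate 1, 0.209 TPM in LD replicate 1 and 0.139 TPM in LD replicate 2.

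Summed over libraries, the inferred reads of miR-6715 were 487 of 61052100 in lactation and 9 of 113404561 in the non-lactating period. The mean of the 6 lactation libraries was 7.86 ± 1.83 TPM (SD, n = 6).

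miR-6516 had 11.12, 11.42 and 17.49 TPM in HP and 17.87, 13.27 and 22.71 TPM in LP. In the non-lactating period it had 1.99, 2.31 and 1.95 TPM in HD and 1.47, 1.39 and 1.2 TPM in LD. The lowest lactation library, HP replicate 1, was 4.81 times above the highest non-lactating library, HD replicate 2. The mean was 15.6 ± 4.52 TPM in lactation and 1.72 ± 0.428 TPM in the non-lactating period (SD, n = 6), a ratio of 9.11. In the non-lactating libraries these values rest on 21 to 51 inferred reads each, well above the floor of 3 reads.

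**Figure D1:**
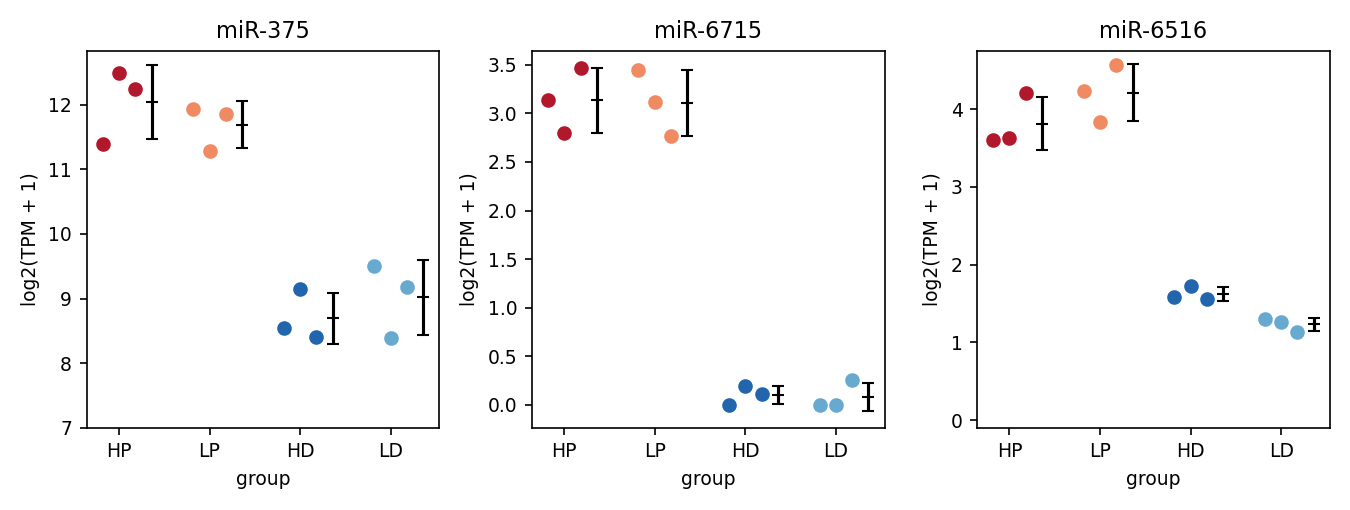
Level of each miRNA in every library as log2(TPM + 1) by group, with 1 point per library in the order of replicates 1 to 3 and the group mean with its SD (n = 3) as a bar to the right. For each of the 3 miRNAs all 6 lactation libraries (HP, LP) lie above all 6 non-lactating libraries (HD, LD), and the axis of miR-375 does not start at 0.

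For all 3 miRNAs every lactation library was above every non-lactating library. That held for 23 of the 388 miRNAs (5.93%), and since the 3 were chosen on this contrast nothing is read from it. A limma fit over the 12 libraries, on the log2(normalized TPM + 1) scale, put 86 of the 388 (22.2%) higher in lactation at a Benjamini-Hochberg adjusted p under 0.05, and 172 (44.3%) in either direction. Without size factors 56 were higher and 82 lower in lactation, in place of 86 and 86. On that scale, which understates the change of miRNAs at a few TPM, lactation exceeded the non-lactating period by a log2 fold change of 3.11 (SE 0.27) for miR-375, 3.05 (SE 0.19) for miR-6715 and 2.66 (SE 0.22) for miR-6516. They ranked 1, 2 and 7 of 388 by that value. miR-148a, the next by p-value, had 2.79.

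The size of the stage difference can be set out for high and low cows apart. In mean TPM, miR-375 was 10.4 times higher in HP than in HD and 6.17 times higher in LP than in LD. For miR-6516 the order was the other way, with 6.40 between HP and HD and 13.3 between LP and LD. miR-6715 gave 108 and 123, ratios whose denominators rest on the few reads given above. Whether the stage difference depended on the phenotype was tested over all 12 libraries, as the difference between the LP over HP and the LD over HD log2 fold changes. That difference was -0.86 for miR-375 (95% interval -2.06 to 0.33), 0.04 for miR-6715 (-0.77 to 0.86) and 0.69 for miR-6516 (-0.28 to 1.67). None of the 3 passed, with limma adjusted p-values of 0.963, 0.993 and 0.963. Over all miRNAs, limma passed 0 of 388 (0%), and 20 had an unadjusted p under 0.05.

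**Figure D2:**
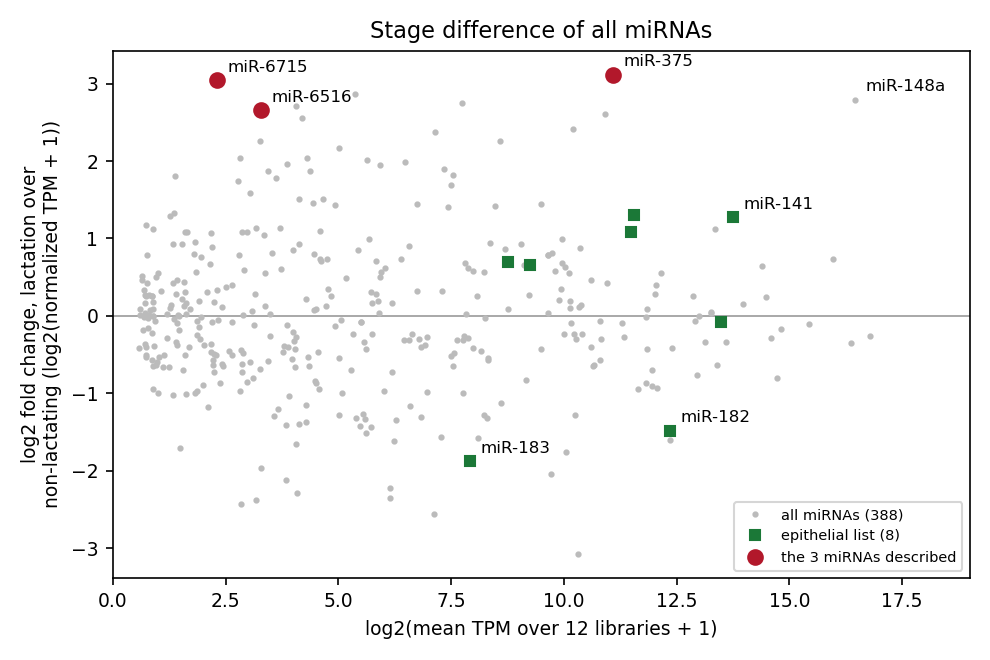
Stage difference, lactation minus non-lactating, as a log2 fold change (y axis, log2(normalized TPM + 1) scale) against mean level (x axis, log2(mean TPM + 1)) for the 388 miRNAs, with 1 point per miRNA. miR-375, miR-6715 and miR-6516 lie near the upper edge at 3.11, 3.05 and 2.66, while the 8 measured miRNAs of the epithelial list run from -1.88 (miR-183) to 1.30.

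In the comparison of HP with LP, none of the 3 miRNAs differed beyond the spread among cows. miR-375 had 4423 ± 1574 TPM in HP and 3366 ± 778 TPM in LP (SD, n = 3), with a log2 fold change of LP over HP of -0.32 (SE 0.36, 95% interval -1.12 to 0.48, limma adjusted p = 0.768). miR-6715 had 7.94 ± 2.06 and 7.78 ± 2.04 TPM, with a log2 fold change of 0.01 (SE 0.36, interval -0.79 to 0.81, limma adjusted p = 1.00). miR-6516 had 13.3 ± 3.59 and 17.95 ± 4.72 TPM, with a log2 fold change of 0.43 (SE 0.36, interval -0.38 to 1.25, limma adjusted p = 0.663). The HP and LP libraries overlapped in TPM for each, where they did not for 67 of the 388 miRNAs (17.3%). As differentially expressed (DE) were taken miRNAs with an unadjusted p under 0.05 and a log2 fold change of more than 0.8 in size. That held for 0 of the 3 and for 39 of the 388 (10.1%), and with Benjamini-Hochberg adjustment 1 of the 388 (0.258%) remained below 0.05. The intervals still allow a change of more than 0.8 in at least 1 direction for miR-375, miR-6715 and miR-6516, so they do not show that the groups were alike.

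Between HD and LD none of the 3 was DE either, where 13 of the 388 (3.35%) were. With Benjamini-Hochberg adjustment limma gave 0 of 388 (0%), and 19 had an unadjusted p under 0.05. miR-375 had 424 ± 123 TPM in HD and 545 ± 199 TPM in LD (SD, n = 3), with a log2 fold change of LD over HD of 0.56 (SE 0.34, interval -0.23 to 1.36, limma adjusted p = 0.993). For miR-6715, at or near the floor in both groups, LD over HD gave 0.01 on the log2 scale (SE 0.15, interval -0.35 to 0.37, limma adjusted p = 0.993), and no difference was detectable at this level.

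miR-6516 was the one member whose HD and LD libraries did not overlap in TPM. It had 2.08 ± 0.197 TPM in HD and 1.35 ± 0.139 TPM in LD (SD, n = 3). A two-sided exact permutation test gave p = 0.1, below which a design of 3 and 3 libraries cannot go. Groups without overlap in TPM were found for 28 of the 388 miRNAs (7.22%). The size factors, which scale libraries by the median of their ratios, differed within HD and LD, from 0.932 to 1.50 in HD and from 0.764 to 1.50 in LD. After division by them miR-6516 had 1.33, 2.07 and 2.09 normalized TPM in HD and 0.980, 1.82 and 1.55 in LD, and the groups overlapped, as they did for all but 37 of the 388 (9.54%). The log2 fold change of LD over HD was -0.23 (SE 0.25, interval -0.81 to 0.34, limma adjusted p = 0.993). The separation therefore held on 1 of the 2 scales.

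**Figure D3:**
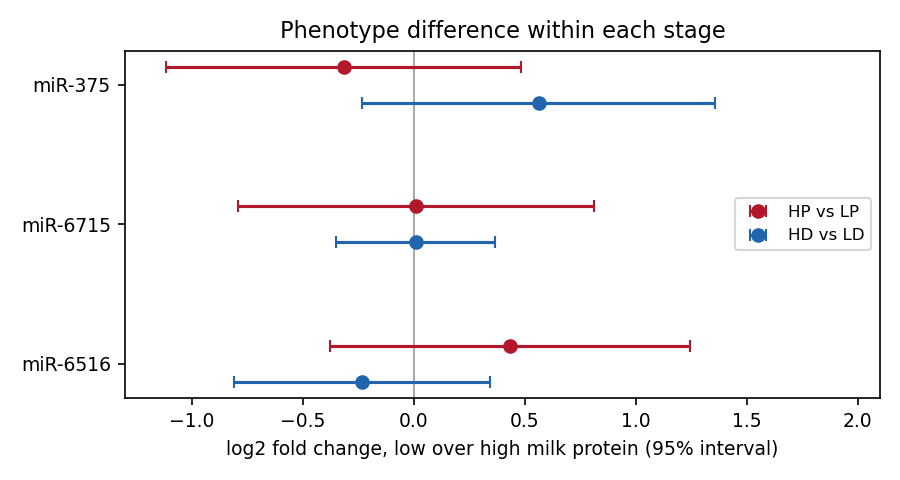
Log2 fold change of low over high milk protein percentage for the 3 miRNAs (x axis, log2(normalized TPM + 1) scale) for HP vs LP (red) and HD vs LD (blue), with 95% intervals from limma over 6 libraries. All 6 intervals include 0, and the points lie between -0.32 and 0.56.

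The order of the groups can be read from the mean TPM. For miR-375 it was HP, LP, LD and HD, and for miR-6516 it was LP, HP, HD and LD. For miR-6715 the mean of HP (7.94 TPM) and that of LP (7.78 TPM) were close, and both non-lactating groups were near 0. For miR-375 and miR-6715, the neighbours within a stage did not differ beyond their spread by the tests above. For miR-6516 neither limma comparison passed. Its HD and LD libraries did not overlap in TPM, as for 28 of the 388 miRNAs (7.22%), but they overlapped in normalized TPM. In all 3, the largest step in the order lay between the stages, but they were chosen on this contrast, so nothing is read from it. Spread between cows of a stage was of like size for the 3 in lactation, where the SD was 32.1% of the mean for miR-375, 23.3% for miR-6715 and 28.9% for miR-6516.

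Levels were also set beside those of a list of 10 miRNAs of epithelial cells, of which 8 were matched in the table (the miR-200 family, miR-205, miR-182 and miR-183). Their summed level was 36136 to 47669 TPM in lactation and 18786 to 46529 TPM in the non-lactating period, with means of 41015 and 34088 TPM. Of all 388 miRNAs, 172 (44.3%) were called for stage, 86 higher in lactation and 86 lower. Over the stages 5 of the 8 epithelial miRNAs rose in lactation, 2 fell and 1 did not pass. Their median log2 fold change was 0.67 against -0.01 over all 388. miR-141, the most abundant of them in lactation, had 18783 ± 6339 TPM there and 8675 ± 4247 TPM after dry-off (SD, n = 6), which limma put at 1.28 on the log2 scale (SE 0.40, adjusted p = 0.0203). In contrast, miR-182 had 2604 ± 887 and 7804 ± 2235 TPM (SD, n = 6), or -1.48 on the log2 scale (SE 0.32, adjusted p = 0.00306 by limma). Its cluster partner miR-183 had -1.88 on that scale (SE 0.39, adjusted p = 0.00207 by limma).

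Per 1000 TPM of the epithelial list, miR-375 had 95.9 ± 34.5 TPM in lactation and 14.9 ± 5.15 TPM in the non-lactating period (SD, n = 6). The lowest lactation library was 3.13 times above the highest non-lactating one, so the stages stayed apart on this scale, with a ratio of means of 6.43 in place of 8.03. For miR-6516 the ratio of means was 7.10, and the lowest lactation library was 3.67 times above the highest non-lactating one. The summed level of the list therefore moved with the stage by less than these miRNAs did. That sum joins 5 miRNAs that rose in lactation with 2 that fell and 1 that did not pass. The ratio to the rising ones alone was not computed. The part of the list in the difference of the 3 miRNAs was not tested.

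**Figure D4:**
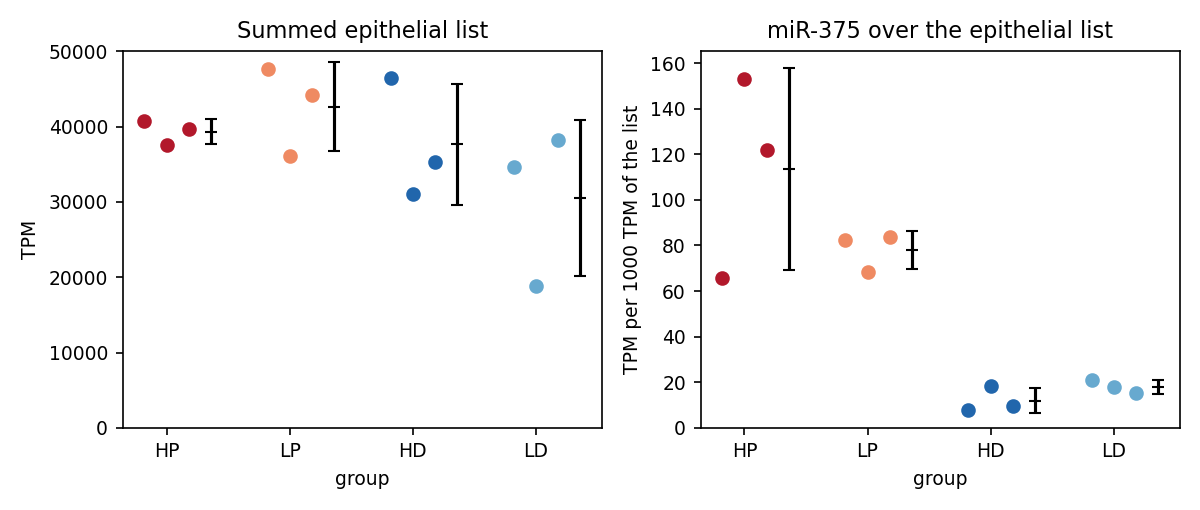
Summed TPM of the 8 measured epithelial miRNAs (left) and TPM of miR-375 per 1000 TPM of that sum (right) in each library by group, with points for libraries and bars for the group mean and SD (n = 3). The sum overlaps between the stages (36136 to 47669 TPM in lactation, 18786 to 46529 TPM in the non-lactating period), whereas the ratio does not (65.7 to 153 against 7.98 to 21.0).

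Among lists of other cell types only the endothelial one held miRNAs called higher in lactation, the direction of the 3 miRNAs. Both miR-126 arms, which mark endothelium, rose in lactation, and their sum was 10665 to 16528 TPM against 4676 to 10738 TPM in the non-lactating period, with a ratio of means of 1.95. The counts of the other lists stand against the 44.3% of all miRNAs called for stage, 86 higher and 86 lower. Of 5 leukocyte miRNAs 2 fell in lactation, miR-155 and miR-142-5p, and 3 did not pass, with sums of 5146 to 8911 TPM against 8262 to 20486 TPM. Of 5 stromal miRNAs of the miR-199 and miR-214 group 2 fell and 3 did not pass, with sums of 7973 to 15613 TPM against 9203 to 24743 TPM. The sums were 58589 to 145006 TPM against 79229 to 224185 TPM for the smooth muscle pair miR-143 and miR-145, and neither passed. Erythroid miRNAs (miR-144, miR-451 and miR-486) summed to 781 to 2041 TPM against 413 to 6127 TPM, and skeletal muscle miRNAs (miR-1 and miR-133a, 2 of 3 matched) to 102 to 392 TPM against 89.1 to 726 TPM, with none passing. The erythroid list had a median stage log2 fold change of 0.92. Its mean sum was 1379 TPM in lactation and 1522 TPM in the non-lactating period. Of 7 miRNAs of neural and endocrine cells 2 were matched, and these are the arms of 1 miRNA, miR-9. Both miR-9 arms fell in lactation, and their sum was 4.65 to 14.1 TPM against 20.1 to 36.9 TPM. The miR-9-3p arm had a mean of 0.428 TPM in lactation, near the floor. The part of these cell types in the values of the 3 miRNAs was not tested.

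The miRNAs with the most similar pattern were sought among those with a mean of at least 10 TPM, by Pearson's r of log2(normalized TPM + 1) over the 12 libraries. Since the libraries fall into the 2 stages, this measure mostly ranks miRNAs by a like stage difference, and it is given as a description. For miR-375 the nearest were miR-148a (r = 0.964), miR-532, miR-33a, miR-33b and miR-362-3p (r = 0.921 for the last). miR-33a and miR-33b are encoded in introns of the sterol regulators SREBF2 and SREBF1. For miR-6715 they were miR-375 (r = 0.957), miR-148a, miR-139, miR-126-3p and miR-345-5p (r = 0.906). For miR-6516 they were miR-148a (r = 0.944), miR-375, miR-6522, miR-126-3p and miR-103 (r = 0.906). miR-148a was thus among the 2 nearest of each within this filter. The filter left out miR-6715 and miR-6516 as candidates. Their r with each other was 0.971, and with miR-375 it was 0.957 and 0.944.

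Within groups the likeness was different. Deviations from the 4 group means were correlated over the same 12 libraries, which share their scaling. The nearest are the highest of many candidates over few libraries, so they are given as a description, with no test. For miR-6715 the non-lactating deviations are those of values at or near the floor. For miR-375 the nearest was then miR-182 (r = 0.913), whose stage difference was in the opposite direction, followed by miR-148b, miR-151-3p, miR-2285q and miR-345-3p. For miR-6715 they were miR-363 (r = 0.865), miR-500, miR-20b, miR-183 and miR-30d, and for miR-6516 they were miR-452 (r = 0.976), miR-1271, miR-6522, miR-148b and miR-151-3p. Among the 3 miRNAs themselves r was between 0.944 and 0.971 over the 12 libraries and between 0.343 and 0.601 for the deviations. Over the 6 lactation libraries alone it was 0.176 for miR-375 with miR-6715, 0.368 for miR-375 with miR-6516 and 0.356 for miR-6715 with miR-6516. Over the 6 non-lactating libraries alone, where miR-6715 was at or near the floor, the same pairs gave 0.718, 0.0501 and 0.369.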

How the data were processed

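The authors trimmed the reads with Cutadapt and Trimmomatic, mapped those of small RNA length to the bovine genome with Bowtie, and counted known miRBase miRNAs with the quantifier module of miRDeep2. The deposited table, made by the authors, gives RPM (named TPM by them) for 426 entries in 12 library columns. The values are rounded and not corrected for length. The authors tested read counts with DESeq2, and those counts were not used here.

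Libraries were grouped by their titles. Of several precursors of a mature miRNA only the entry highest on average was used, leaving 388 miRNAs. Reads per library are estimates from the step of the low values. At least 99.76% of the values of a library were whole multiples of it within 0.0051 TPM. A further check, given below, did not accept whole reads in most libraries. Each fit took log2 of TPM divided by median-of-ratios size factors of its own libraries, plus 1. Per-library values in normalized TPM use size factors over all 12 libraries. Fits over all 388 miRNAs used limma 3.58.1 in R 4.3.3 with a mean-variance trend, tested on simulated data. HP vs LP and HD vs LD used the 6 libraries of the stage. Stage and its dependence on phenotype used all 12. Exact permutation tests used scipy 1.17.1. P-values set a difference between groups against the spread between cows, and limma draws on all miRNAs of a fit to estimate that spread.

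Named miRNAs are the 3 members, miRNAs of 8 cell type lists and, for each member, the 5 most like it by each measure. The members and lists were chosen with earlier results of these data known. Alternatives were no size factors, other pseudocounts (0.1 and 5), a mean of at least 10 TPM, no trend, all precursor entries, a replicate block, a joint fit of 12 libraries for the phenotype comparisons, scaling to the epithelial list and leaving out each library. Sequences and coordinates are not reported here.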

Additional observations from a re-analysis of the deposited data

How the results depend on the processing

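The stage values of the 3 miRNAs are a description, since they were chosen on that contrast. A mean of at least 10 TPM left out miR-6715, and left out miR-6516 except in HP vs LP. Without each library in turn, their stage log2 fold changes ranged from 2.98 to 3.28 (miR-375), from 2.95 to 3.15 (miR-6715) and from 2.58 to 2.81 (miR-6516). Over the epithelial list the stage log2 fold change was 2.70 for miR-375, 2.72 for miR-6715 and 2.27 for miR-6516. The pseudocount moved miR-6715 most, to 5.67 with 0.1 and 1.35 with 5 added. No member was DE between high and low cows under the alternatives that gave it a p-value; scaling to the epithelial list gave none. Without single libraries miR-375 ranged from -0.60 to -0.014 in HP vs LP and from 0.31 to 0.81 in HD vs LD, and miR-6516 from 0.27 to 0.71 and from -0.36 to -0.065. Without size factors the median of all miRNAs in HD vs LD was -0.16 in place of 0.03. The sign of miR-6715 between high and low cows changed without size factors, to -0.027 in HP vs LP (-0.13 over the epithelial list), -0.016 in HD vs LD and -0.010 for the dependence on stage. In HD vs LD it was -0.10 with 0.1 added and 0.33 over the epithelial list. Without single libraries miR-6715 ranged from -0.27 to 0.19 in HP vs LP, from -0.11 to 0.064 in HD vs LD and from -0.24 to 0.21 for the dependence on stage. The cause was not tested.

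The number of miRNAs called over all miRNAs was 172 for stage and 114 with a mean of at least 10 TPM, where fewer miRNAs were tested. In HP vs LP it was 22 with 5 added, and from 24 (without LP replicate 1) to 53 without single libraries. In HD vs LD it was 3 without size factors, 7 with 5 added and 8 with a mean of at least 10 TPM, and from 6 (without HD replicate 2) to 36 (without LD replicate 1), with 8 without LD replicate 2. Same-numbered libraries did not deviate together in every pair (r from -0.256 to 0.00930 in lactation and from -0.113 to 0.548 in the non-lactating period), and correlated best with their own number in HD and LD replicates 1 and 3 alone. With a replicate block the numbers were 170 for stage, 34 for HP vs LP and 17 for HD vs LD and no member became DE; a block cannot move a fold change in this balanced design (3.11, -0.32 and 0.56 for miR-375). Count tests (edgeR and DESeq2) on reads recovered from the steps were planned and not run. The reason was that a check of the steps did not accept whole reads in most libraries. The reads, library totals and floors given above are therefore estimates.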

Other observations

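The ratio of miR-375 to miR-6516 within a library does not depend on how libraries are scaled. It was looked at after the values of both were seen. It was 241, 503 and 277 in HP and 219, 187 and 163 in LP, so that the HP libraries were above the LP libraries. The lowest HP and highest LP values, 241 and 219, were close. Among single miRNAs, HP and LP did not overlap in TPM for 67 of the 388 (17.3%), so nothing is read from the separation. In the non-lactating period the ratio was 187, 245 and 172 in HD and 494, 239 and 481 in LD, where LD replicate 2 lay below HD replicate 2. Neither difference, nor the difference between the stages in direction, was tested.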
